A study of Homo sapiens with 6 samples.

Results

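The genes described here are 55 G2/M and mitosis genes: the cyclins and kinases that drive entry into mitosis, the spindle checkpoint, the kinetochore, the mitotic kinesins, the spindle, cytokinesis and the condensins. The rule took the rows of the deposited gene table whose symbol is on a list of names and uses no measured value, though the list was drawn up with earlier results of these data known. Of the 55 genes, 45 had a row among the 12306 gene rows of the table. CCNB1, CDK1, CDC25C, MKI67, CENPA, BIRC5, SPC24, UBE2C, NEK2 and DLGAP5 had no row among those used here. A mean above the lowest 25% of rows was required for testing, which 43 of the 55 genes met, among 9229 tested rows in all.

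RNA was sequenced from 92.1 cells, an established line from a human uveal melanoma (a melanoma of the eye), grown in RPMI-1640 with fetal bovine serum. One group of 3 libraries came from cells given 1 µM VS-4718 for 2 h. The reference was 3 libraries from cells given DMSO, the vehicle, for 2 h. VS-4718 blocks the kinase activity of FAK (focal adhesion kinase, the product of PTK2), a tyrosine kinase that signals from integrins where cells adhere. The submitters call the samples of a group independent, and no label says whether they are separate cultures, so p-values here reflect only how far these samples scatter, which may be technical scatter. All libraries come from 1 cell line, 1 dose and 1 time.

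Transcripts of this gene set are made mainly in late S phase, G2 and mitosis, so in a growing culture their level follows the share of cells in those phases. Their promoters are repressed in resting and early-cycle cells by the DREAM complex. They are switched on later by B-Myb and FOXM1, which work with the MuvB core of the same complex. MuvB binds a short promoter element named the cell cycle genes homology region (CHR), which often lies near CCAAT boxes bound by NF-Y. Some of the products are then removed by way of the anaphase-promoting complex (APC/C), a ubiquitin ligase that works with CDC20 in mitosis. In bulk RNA, fewer cells in a phase and less RNA per cell cannot be told apart.

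The stretches below are shown as examples of how the element these genes are known for lies in their promoters: close to the start in CCNB2, PLK1 and CDC20, far from it in NCAPD2, and not before the start in CENPF and KIF20B. Each is the 150 bases before the gene start in RefSeq (GRCh38.p14), written 5′ to 3′ on the gene's strand. Capitals mark the CHR letters TTTGAA or TTCGAA and the CCAAT letters, with ATTGG marking a CCAAT on the other strand. CCNB2 spans chr15:59104996-59105145, PLK1 chr16:23678739-23678888, CDC20 chr1:43358831-43358980, CENPF chr1:214603045-214603194, KIF20B chr10:89701440-89701589 and NCAPD2 chr12:6493952-6494101, all on the plus strand.
CCNB2: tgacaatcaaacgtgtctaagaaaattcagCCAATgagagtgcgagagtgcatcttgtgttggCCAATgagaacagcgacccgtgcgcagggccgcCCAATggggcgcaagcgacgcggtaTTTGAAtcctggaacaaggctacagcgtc
PLK1: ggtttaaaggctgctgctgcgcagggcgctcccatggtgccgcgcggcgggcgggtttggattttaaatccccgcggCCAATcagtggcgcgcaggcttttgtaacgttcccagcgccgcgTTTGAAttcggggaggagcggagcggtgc
CDC20: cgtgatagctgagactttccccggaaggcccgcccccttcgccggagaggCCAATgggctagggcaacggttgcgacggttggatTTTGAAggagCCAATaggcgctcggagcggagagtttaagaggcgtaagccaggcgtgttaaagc
CENPF: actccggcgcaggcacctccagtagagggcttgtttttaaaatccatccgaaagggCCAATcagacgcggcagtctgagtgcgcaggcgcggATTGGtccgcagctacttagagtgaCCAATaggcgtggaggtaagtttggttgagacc
KIF20B: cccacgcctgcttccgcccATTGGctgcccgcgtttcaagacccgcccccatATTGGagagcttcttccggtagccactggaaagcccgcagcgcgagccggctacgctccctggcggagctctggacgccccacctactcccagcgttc
NCAPD2: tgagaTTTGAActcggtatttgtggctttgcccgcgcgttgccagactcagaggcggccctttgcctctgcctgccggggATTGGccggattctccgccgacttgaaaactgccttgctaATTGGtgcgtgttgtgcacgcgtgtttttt
In CCNB2 and in PLK1 the first base of TTTGAA stood at -29, where -1 is the base before the start. In CDC20 it stood at -65, and a match on the other strand, outside the stretch shown, began at -178. NCAPD2 held TTTGAA at -145. In CENPF the match lay past the start, at 41, and in KIF20B at 25 and 31, so neither stretch shows one, while both hold CCAAT letters. GENCODE 29 places the first base of the CCNB2, PLK1, CDC20 and NCAPD2 genes upstream of the RefSeq start. All printed bases of PLK1 and NCAPD2, and the last part of those of CCNB2 and CDC20, therefore lie inside that gene model.

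Over a window of 300 bases, 250 before to 50 after the start, 47 of the 55 genes had 60 promoters in the RefSeq table. CHR letters, on either strand, were in 41 of the 60 promoters (68.3%), against 16.4% of all 35116 promoters and 11.7% of the 9341 promoters of genes with a tested row. CCAAT letters were in 43 of the 60 (71.7%), against 34.6% of all promoters. Both were in 53.3% of the members' promoters and in 6.38% of all. A match is a description of letters and was not tied to binding in these cells. AURKA, BUB3, TTK, TPX2, BIRC5, UBE2C, FOXM1 and RACGAP1 were not in the promoter table.

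**Figure D1:**
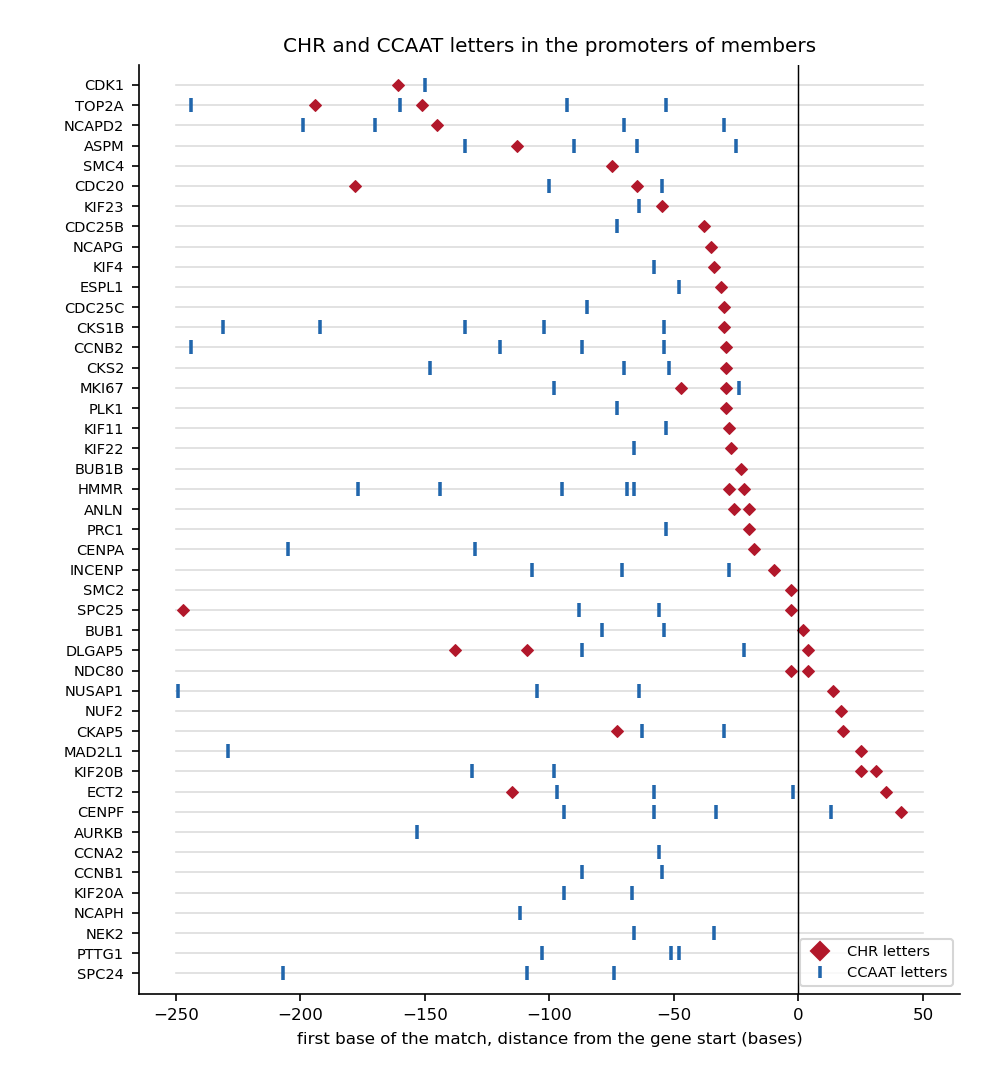
Positions of CHR letters (diamonds) and CCAAT letters (ticks) in 1 promoter of each of 45 members with either match, by the distance in bases of the match's first base from the gene start (vertical line at 0). The CHR matches of 37 genes are drawn, and many stand shortly before the start with a CCAAT upstream.

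No G2/M or mitosis gene passed the adjusted test after 2 h of VS-4718 (0 of 43, limma with Benjamini-Hochberg adjustment over all tested rows, adjusted p under 0.05). At an unadjusted p under 0.05 there were 7 (16.3%), against 9.76% of all tested rows. The smallest adjusted p was 0.338, for the kinetochore protein CENPF. Over all tested rows, 12 passed, which is 0.130%. Among the tested members, differences between the groups were small. They ran between -0.29 for KIF20B, a cytokinesis kinesin, and 0.27 for SMC2, a condensin core subunit, on the log2 scale (VS-4718 minus vehicle).

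The values are log2 of a measure like TPM (transcript abundance per length, scaled to a fixed total), so a difference of 1 is a 2-fold difference. The deposited values keep no read total, and the depth of each library is unknown. The members' mean levels ran between -1.24 for NUSAP1 and 9.26 for CKS2, with a median of 5.14, and 32 of the 45 lay above 3.99, the median of all tested rows. CDC25B and NUSAP1 were too low to test. CDC25B, a phosphatase that activates CDK1, had -1.20, -1.28 and -1.25 in the VS-4718 libraries, against -1.10, -1.39 and -0.43 in the vehicle libraries. NUSAP1, a spindle microtubule binder, had -2.21, -1.16 and -1.10 with VS-4718, against -0.73, -1.25 and -0.99 with vehicle. The groups overlap in both genes.

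The means of 34 of the 43 tested members were lower with VS-4718, with a median difference of -0.08, while 58.19% of all tested rows were lower, with a median of -0.03. When each library was scaled to the same median, 29 members were lower and 14 higher, with a median of -0.05, and 49.33% of all rows were lower. CCNB2, BUB1, KIF11, KIF4 and HMMR are the members that took a positive sign under that scaling. At an unadjusted p under 0.05, 6 members (14.0%) were lower and 1 (2.33%) was higher, against 6.74% and 3.02% of all tested rows. In both directions together that is 7 members (16.3%), against 9.76% of all rows. With median scaling it was 4 members, 2 lower (PLK1 and CENPF) and 2 higher (SMC2 and NCAPD2), which is 9.3% of the members against 9.42% of all rows. Leaving out vehicle replicate 2 gave 2 members (4.65%), against 8.7% of all rows. Leaving out treated replicate 2 gave 3 (6.98%, against 7.65%), treated replicate 1 gave 4 (9.3%, against 8.21%) and vehicle replicate 3 gave 4 (9.3%, against 8.28%). The share of members at this threshold was thus under that of all rows with median scaling and without replicate 2 of either group. It was slightly above without treated replicate 1 and without vehicle replicate 3. It was also above that of all rows with no filter (17.8%, against 8.77%) and a pseudocount of 1 (16.3%, against 9.81%). Sample quality weights gave 14.0% (against 10.4%), and no variance trend 11.6% (against 9.86%). Without treated replicate 3 it was 14.0% (against 10.7%), and without vehicle replicate 1 it was 11.6% (against 8.27%). A stricter filter gave 19.4%, also above all rows, and a replicate block 9.3% (against 8.59%).

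The lower values were not carried evenly by the 3 treated libraries. Set against the vehicle mean, 24, 33 and 28 of the 43 members were lower in VS-4718 replicates 1, 2 and 3, with medians of -0.03, -0.10 and -0.06. Those counts are 55.81%, 76.74% and 65.12% of the members, against 55.64%, 61.07% and 51.23% of all tested rows in the same libraries, so in replicate 1 the members' share was that of the whole table. Each vehicle library was set against the mean of the other 2 vehicle libraries. Leaving the library itself out of its reference makes its differences larger. On that reference vehicle replicate 3 had 29 of 43 lower, with a median of -0.05. Vehicle replicate 2 had 14 with a median of 0.05, and vehicle replicate 1 had 19 with a median of 0.01. The median of vehicle replicate 3 lay within the range of the VS-4718 medians, though the references differ. Leaving vehicle replicate 3 out raised the count of lower members to 36. The members' share of the summed linear values was 0.3365%, 0.3398% and 0.3469% in the VS-4718 libraries, against 0.3541%, 0.3728% and 0.3514% in the vehicle libraries, so all 3 treated libraries lay under all 3 vehicle libraries on this measure, by a small margin. That share was not tested, and it is weighted towards the most abundant members such as CKS2 and PTTG1.

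**Figure D2:**
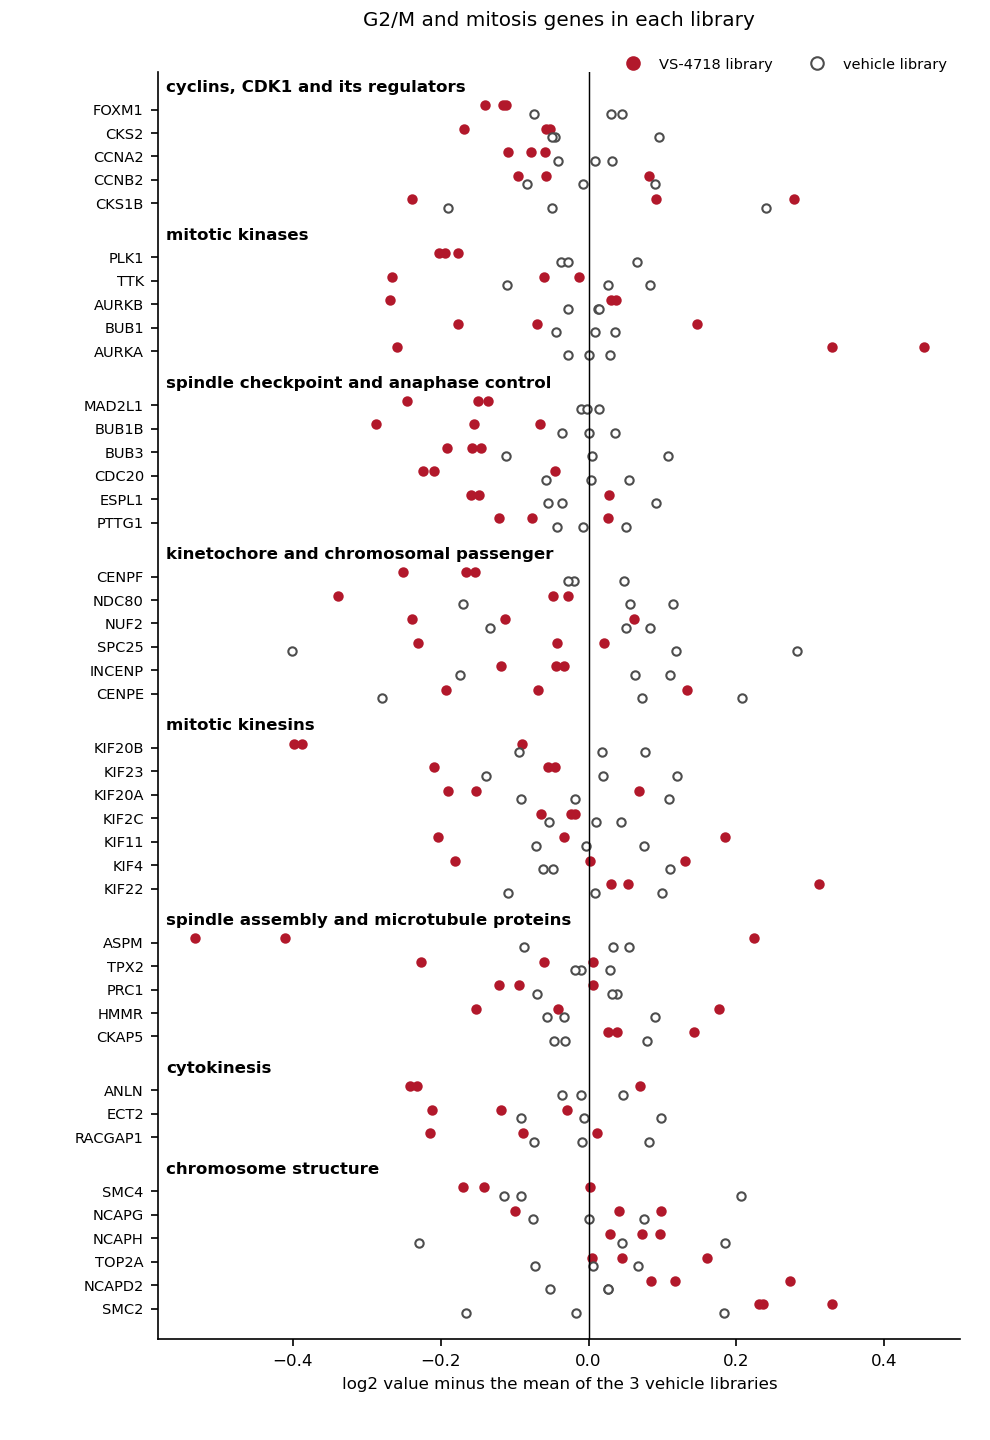
Each tested member's log2 value in each library, minus the mean of its 3 vehicle libraries (horizontal axis, log2 units), by role, with VS-4718 libraries as filled red points above the open vehicle points of the same gene. The groups of PLK1, MAD2L1 and CENPF separate to the left, those of SMC2 and NCAPD2 to the right, and in most genes the points overlap.

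The groups did not overlap in 8 members that were lower with VS-4718 (18.6%) and in 2 that were higher (4.65%), against 11.2% and 5.15% of all tested rows. The 8 were CENPF, PLK1, MAD2L1, BUB3, FOXM1, CCNA2, BUB1B and CKS2. The 2 were SMC2 and NCAPD2.

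Among the cyclins, CDK1 and its regulators, 5 of 9 genes were tested, and the VS-4718 mean was the lower one in 4, with a median difference of -0.08. CCNB1 and CDK1, the pair that forms the mitosis-promoting kinase, had no row, so entry into mitosis is represented here by CCNB2, a second B-type cyclin, and CCNA2, the S and G2 cyclin. CCNB2 had 4.91, 4.74 and 4.77 with VS-4718, against 4.92, 4.82 and 4.75 with vehicle. Its groups overlap across nearly their whole range, and the difference was -0.02 ± 0.08 (SE). CCNA2 had 5.74, 5.79 and 5.77 with VS-4718, against 5.86, 5.88 and 5.81 with vehicle. All 3 treated libraries lie under the lowest vehicle library, by little, and the difference of -0.08 ± 0.06 did not pass the test (limma with Benjamini-Hochberg adjustment, adjusted p = 0.67).

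FOXM1, the transcription factor that activates much of this gene set, had 6.77, 6.80 and 6.80 with VS-4718, against 6.84, 6.96 and 6.94 with vehicle. The groups do not overlap, and the treated libraries are very close to each other. The difference was -0.12 ± 0.05, with an adjusted p of 0.52 (limma with Benjamini-Hochberg adjustment). CKS2, a small CDK-binding protein and the most abundant member, averaged 9.21 ± 0.07 with VS-4718 and 9.30 ± 0.08 with vehicle (SD, n = 3 each), without overlap. Its relative CKS1B had the one higher mean of the group, at 6.54 ± 0.26 with VS-4718 and 6.49 ± 0.22 with vehicle, with overlapping libraries.

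Of the mitotic kinases, 5 of 6 were tested and 4 had lower means, with a median difference of -0.07. PLK1, which promotes mitotic entry, centrosome maturation and spindle assembly, lies at chr16:23677656-23690367 (GENCODE 29 on GRCh38, as are the positions of genes that follow). It had 5.90, 5.88 and 5.88 with VS-4718, against 6.14, 6.04 and 6.05 with vehicle. The treated libraries are nearly identical and all lie under the vehicle libraries. The difference was -0.19 ± 0.06 (95% interval -0.33 to -0.06), which is 12.4% lower on the linear scale, with an unadjusted p of 0.0124 and an adjusted p of 0.376 by limma.

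The Aurora kinases were the least even of the kinases. AURKA, which matures centrosomes and builds the spindle, had 5.51, 5.38 and 4.79 with VS-4718, against 5.08, 5.02 and 5.05 with vehicle. Treated libraries stand both above and below the tight vehicle group. Its mean difference was 0.17 ± 0.18, and it was 0.03 without VS-4718 replicate 1. Leaving out replicate 3 of that group gave 0.39, with an adjusted p of 0.291 (limma). AURKB, the kinase of the chromosomal passenger complex, had 5.83, 5.83 and 5.53 with VS-4718, against 5.81, 5.77 and 5.81 with vehicle. Here too replicate 3 is the low treated library, and the difference of -0.07 turned to 0.03 without it.

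BUB1, a kinetochore kinase of the spindle checkpoint, had 4.786, 5.001 and 4.678 with VS-4718, against 4.810, 4.891 and 4.863 with vehicle. Its treated libraries bracket the vehicle group, with a difference of -0.03 ± 0.10. TTK, the kinase that starts checkpoint signalling, averaged 3.25 ± 0.13 with VS-4718 and 3.37 ± 0.10 with vehicle (SD, n = 3 each), and its groups overlap.

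**Figure D3:**
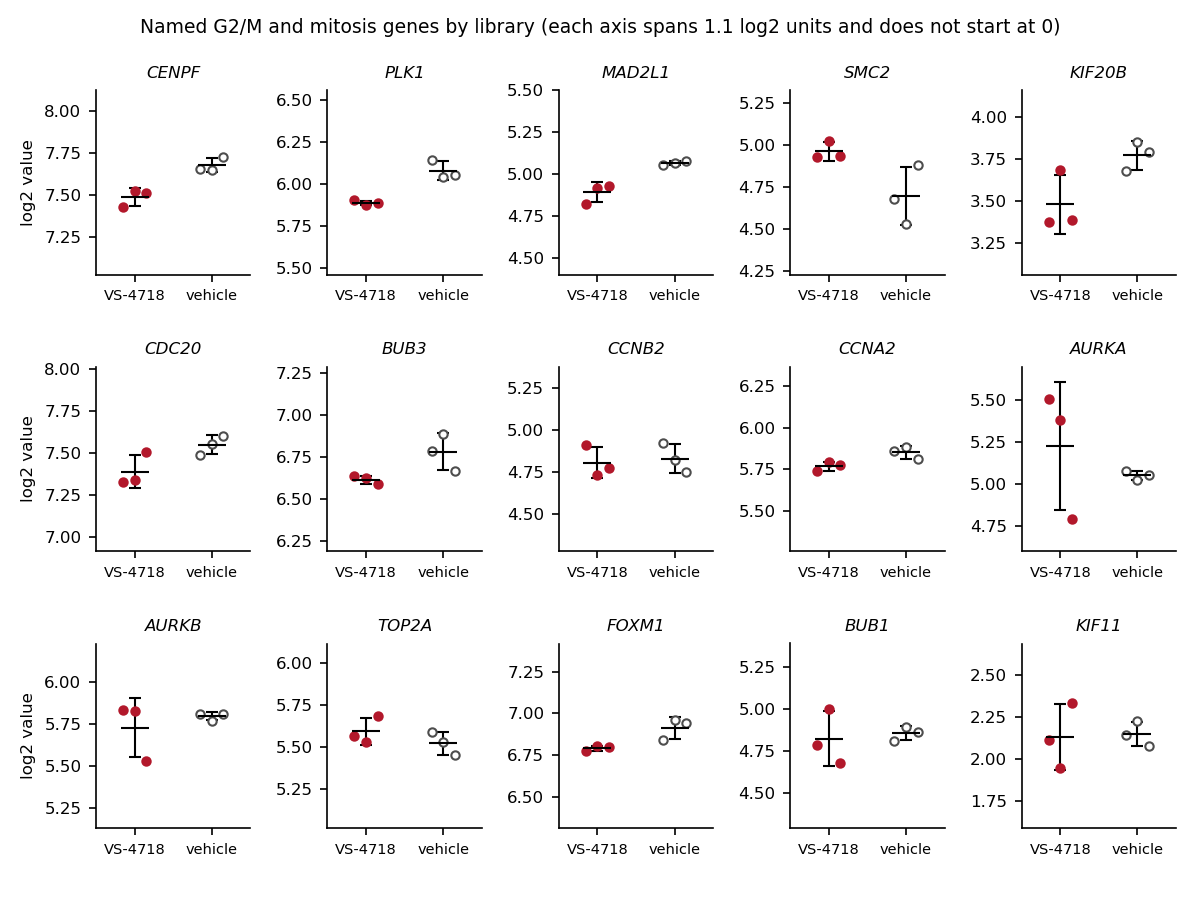
Log2 values of 15 members by library, with VS-4718 (filled) left of vehicle (open); bars give the mean and SD of 3 libraries, and each axis spans 1.1 log2 units without starting at 0. CENPF, PLK1 and MAD2L1 show separate groups, SMC2 is higher with VS-4718, and AURKA shows one low treated library.

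The spindle checkpoint and anaphase genes held the lowest median of the roles, -0.16. Lower means with VS-4718 were seen in 6 of 6 tested genes, 3 of them at an unadjusted p under 0.05. Over all tested rows, 58.19% were lower, and 6.74% were lower at that threshold. All 6 checkpoint and anaphase genes were also lower under median scaling, with a median of -0.13. None of the 6 then had an unadjusted p under 0.05. MAD2L1 is the checkpoint protein that holds CDC20 back until chromosomes are attached, at chr4:120055608-120067074. It had 4.82, 4.92 and 4.93 with VS-4718, against 5.06, 5.06 and 5.08 with vehicle. The vehicle libraries are almost equal, and all treated libraries lie under them. The difference was -0.18 ± 0.07 (95% interval -0.33 to -0.02), with an adjusted p of 0.482 by limma.

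CDC20, the APC/C activator at chr1:43358955-43363203, had 7.32, 7.34 and 7.50 with VS-4718, against 7.49, 7.55 and 7.60 with vehicle. One treated library reaches into the vehicle range, and the difference was -0.16 ± 0.06 (adjusted p = 0.494, limma). BUB3, which carries BUB1 and BUB1B to kinetochores, lies at chr10:123154277-123170467. It had 6.63, 6.62 and 6.59 with VS-4718, against 6.79, 6.89 and 6.67 with vehicle. The groups do not overlap, with a difference of -0.17 ± 0.07 (adjusted p = 0.496, limma), which was -0.11 without vehicle replicate 2.

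BUB1B, the checkpoint protein BubR1, averaged 2.57 ± 0.11 with VS-4718 and 2.74 ± 0.04 with vehicle (SD, n = 3 each), without overlap. The separase pair stood closer to its vehicle level. ESPL1, separase itself, averaged 2.06 ± 0.10 with VS-4718 and 2.16 ± 0.08 with vehicle. PTTG1, the securin that inhibits it, averaged 8.42 ± 0.08 with VS-4718 and 8.47 ± 0.05 with vehicle. Both genes' groups overlap. PTTG1 has near-identical copies in the genome, so its reads may have been split.

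The kinetochore and chromosomal passenger genes were also lower in 6 of 6 tested genes of 9, with a median difference of -0.09. CENPF, a large protein of the outer kinetochore that accumulates in G2, lies at chr1:214603195-214664588. It had 7.43, 7.52 and 7.51 with VS-4718, against 7.66, 7.65 and 7.72 with vehicle. The groups are clearly apart relative to their own spread, with a difference of -0.19 ± 0.05 (95% interval -0.31 to -0.07, 12.4% lower). Its unadjusted p of 0.00625 was the smallest of the members, and the adjusted p was 0.338 (limma with Benjamini-Hochberg adjustment). CENPF and PLK1 had an unadjusted p under 0.05 in all 13 alternatives tried, and in none did either reach an adjusted p under 0.05. The alternatives refit the same libraries, and these genes had the smallest p of the members, so this is no independent evidence.

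The other 5 kinetochore and passenger genes all had overlapping groups. NDC80, whose complex grips microtubules, averaged 3.87 ± 0.17 with VS-4718 and 4.01 ± 0.15 with vehicle. Its partners NUF2 and SPC25 had differences of -0.10 and -0.08. The passenger scaffold INCENP and the kinetochore motor CENPE had differences of -0.07 and -0.04. SPC25 was among the least precise of the members, since its vehicle libraries ran between 1.77 and 2.45.

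All 7 mitotic kinesins were tested. The means of 6 were lower with VS-4718, with a median difference of -0.04, and 4 were lower under median scaling. KIF20B, needed to finish cytokinesis, lies at chr10:89701610-89774939. It had 3.37, 3.68 and 3.38 with VS-4718, against 3.68, 3.85 and 3.79 with vehicle. Replicate 2 of the treated group sits at the lower edge of the vehicle range, and the difference of -0.29 ± 0.12 was the lowest of the tested members (adjusted p = 0.494, limma).

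KIF11, the motor that pushes spindle poles apart, had 2.11, 1.94 and 2.33 with VS-4718, against 2.14, 2.22 and 2.07 with vehicle. The treated libraries spread around the vehicle group, with a difference of -0.02 ± 0.14. KIF22, a chromosome arm motor, had the one higher mean, 5.70 ± 0.16 with VS-4718 and 5.57 ± 0.10 with vehicle. KIF23 and KIF20A, which act at the midzone, and KIF2C, which takes microtubules apart, had differences of -0.10, -0.09 and -0.04. KIF4 is the row name used for the chromokinesin KIF4A. Its difference was -0.02, and reads may be shared with a near-identical copy.

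Among spindle assembly proteins, 4 of 5 tested genes had lower means, with a median difference of -0.07, and none had an unadjusted p under 0.05. ASPM, a spindle pole protein, had the widest interval of the members: 1.91, 1.15 and 1.28 with VS-4718, against 1.72, 1.74 and 1.60 with vehicle. Treated replicate 1 lies above the vehicle group and replicates 2 and 3 below it. TPX2, an activator of AURKA, and PRC1, which bundles midzone microtubules, had differences of -0.09 and -0.07. CKAP5, a microtubule polymerase, averaged 5.30 ± 0.06 with VS-4718 and 5.23 ± 0.07 with vehicle. HMMR differed by -0.01.

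The 3 cytokinesis genes were all lower on average and all overlapped between groups. ANLN, a scaffold of the contractile ring, averaged 4.78 ± 0.18 with VS-4718 and 4.91 ± 0.04 with vehicle. ECT2, which activates RhoA at the equator, and its partner RACGAP1 had differences of -0.12 and -0.10.

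Genes of chromosome structure had mostly higher means with VS-4718, unlike the other roles. Only 1 of 6 tested genes, the condensin ATPase SMC4, was lower with VS-4718, and the median difference was 0.07, or 0.10 under median scaling. The members outside this role were lower in 33 of 37 (89.19%), with a median of -0.09, against 79.07% of all tested members and 58.19% of all tested rows. Leaving out a role with mostly higher means raises that share in itself. SMC2, the other condensin ATPase and the partner of SMC4, lies at chr9:104094260-104141417. It had 4.93, 5.03 and 4.93 with VS-4718, against 4.68, 4.53 and 4.88 with vehicle. The groups do not overlap, though vehicle replicate 3 comes close, and the difference was 0.27 ± 0.10 (95% interval 0.02 to 0.51, adjusted p = 0.488, limma). It was 0.18 without vehicle replicate 2 and 0.36 without vehicle replicate 3.

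NCAPD2, a condensin I subunit, had 6.12, 6.31 and 6.16 with VS-4718, against 6.07, 5.99 and 6.07 with vehicle. All treated libraries lie above the vehicle libraries, with a difference of 0.16 ± 0.07 (adjusted p = 0.527, limma). TOP2A, the topoisomerase that untangles sister chromatids, had 5.57, 5.53 and 5.68 with VS-4718, against 5.59, 5.53 and 5.45 with vehicle. Its groups overlap, with a difference of 0.07 ± 0.07.

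The remaining condensin I subunits also overlapped. NCAPH averaged 6.31 ± 0.03 with VS-4718 and 6.24 ± 0.21 with vehicle, NCAPG differed by 0.01, and SMC4 averaged 5.83 ± 0.09 with VS-4718 and 5.93 ± 0.18 with vehicle. With the condensin II subunits NCAPG2, NCAPH2 and NCAPD3 added, 6 of 8 condensin genes had higher means with VS-4718, with a median difference of 0.06. The difference between this role and the others was not tested, and the roles were set with earlier results of these data known.

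**Figure D4:**
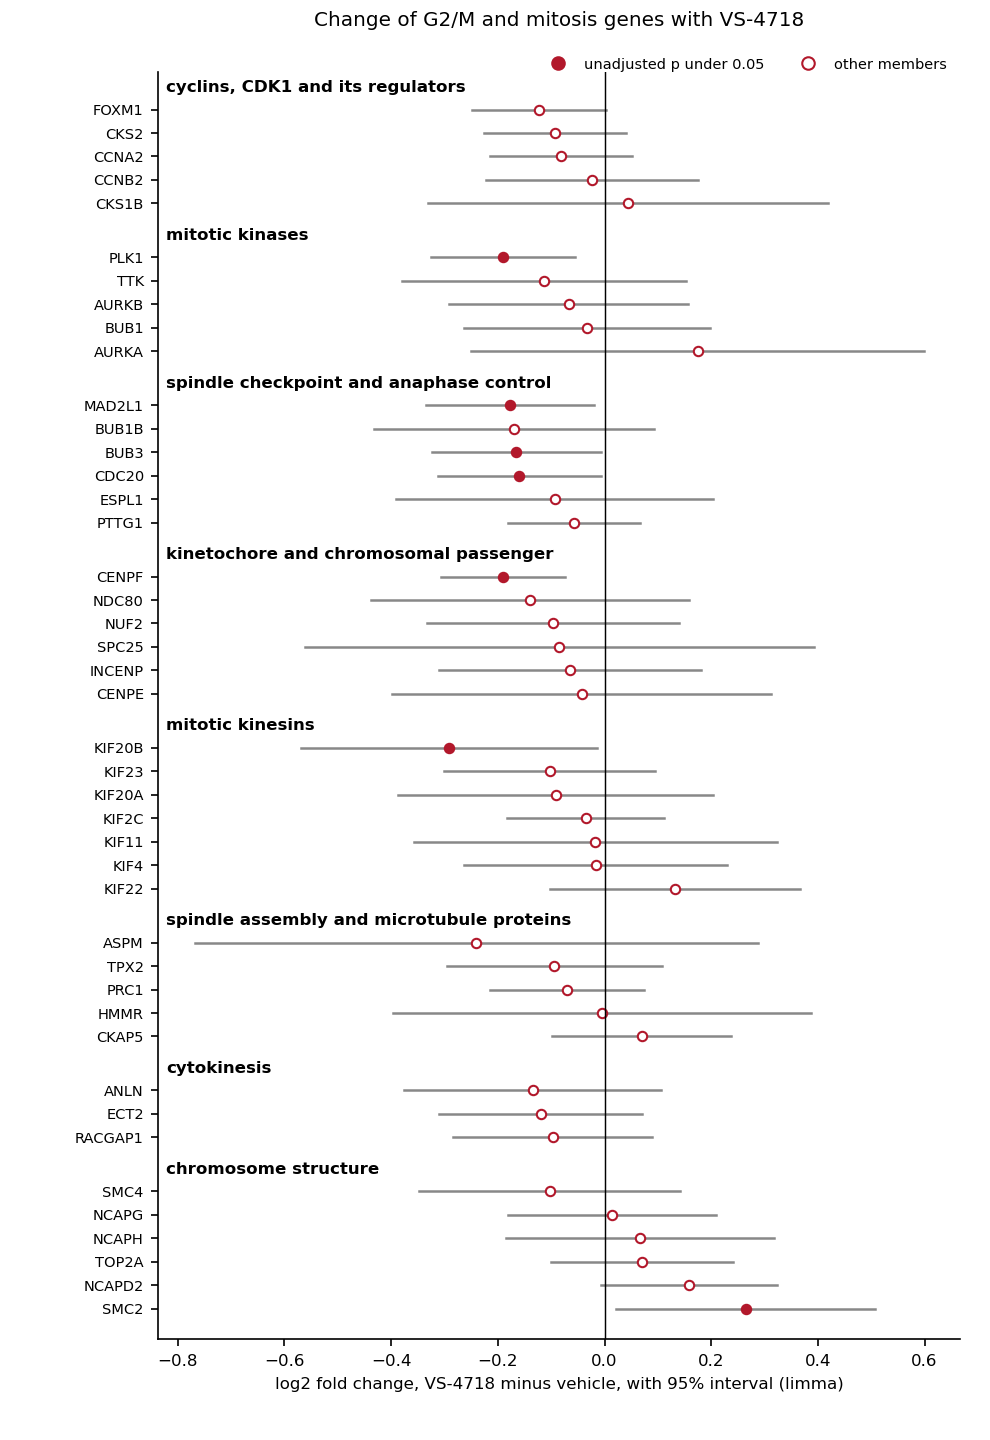
Log2 fold change of each tested member, VS-4718 minus vehicle, with limma's 95% interval, by role; filled points have an unadjusted p under 0.05. The 6 filled points left of 0 are PLK1, MAD2L1, BUB3, CDC20, CENPF and KIF20B, the one to the right is SMC2, and no member passed the adjusted test.

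The intervals give the size of difference that these libraries leave possible. The half-width of the 95% interval had a median of 0.231 log2 units over the members, narrower than the 0.295 over all tested rows. It was narrowest for CENPF at 0.116 and widest for ASPM at 0.528. The intervals of 43 of 43 tested members lay within a 2-fold difference either way, and those of 38 lay within 1.41-fold. The other 5 were AURKA, KIF20B, SPC25, SMC2 and ASPM. Among the members, the SD was larger with VS-4718 in 28 of 43, with a median SD of 0.102 with VS-4718 and 0.0781 with vehicle. The same was not counted over all tested rows.

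Members with CHR letters and members without them both had mostly lower means. Genes not in the promoter table are left out here, among the tested members AURKA, BUB3, TTK, TPX2, FOXM1 and RACGAP1. Of the 30 tested members with CHR letters in a promoter, 23 were lower, with a median difference of -0.09. Of the 7 members without them, 6 were lower, with a median of -0.06. Among other tested genes, 60.6% of 935 with CHR letters and 58.8% of 5295 without them were lower, with medians of -0.04 and -0.03.

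**Figure D5:**
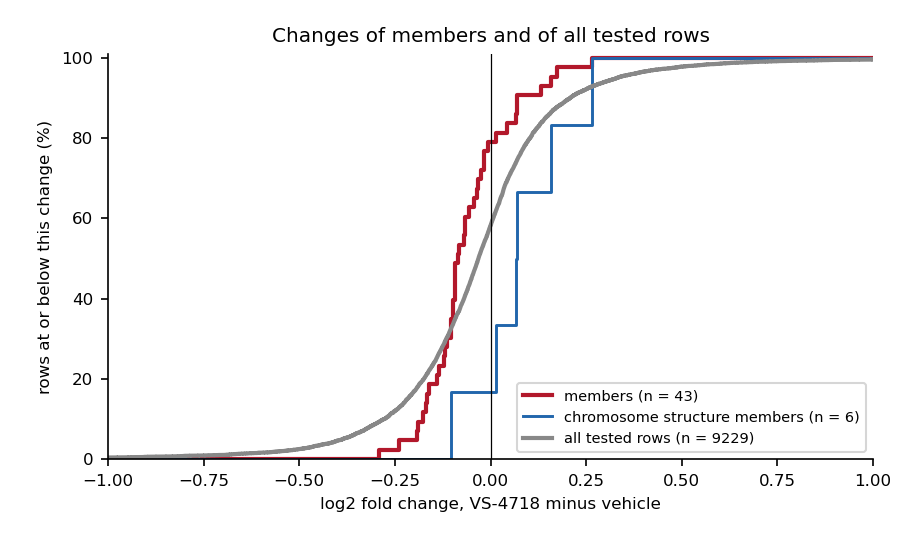
Share of rows (vertical axis, percent) at or below each log2 fold change, VS-4718 minus vehicle (horizontal axis), for the 43 tested members, the 6 members of chromosome structure and all 9229 tested rows; rows beyond 1 unit run off the axis. The members' curve is steeper and crosses 0 at 79.07% against 58.19% for all rows, and the chromosome structure curve lies to the right.

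The regulators around the gene set were read from further lists, and none of their genes passed the adjusted test. Of the MuvB, DREAM and B-Myb genes, which control the CHR, 7 of 13 tested were lower, with a median of -0.02. E2F5, a repressor E2F, had 3.09, 3.09 and 3.01 with VS-4718, against 3.37, 3.49 and 3.54 with vehicle. Its groups are well apart, with a difference of -0.40 ± 0.10, an unadjusted p of 0.00419 and an adjusted p of 0.291 (limma). E2F4, the main E2F of DREAM, differed by -0.14 and its dimer partner TFDP2 by 0.20, both with an unadjusted p above the threshold of 0.05.

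Genes of the G2 checkpoint and of mitotic entry were lower in 11 of 15 tested, with a median of -0.08. BORA, which lets AURKA activate PLK1, had 1.35, 1.38 and 1.58 with VS-4718, against 1.74, 1.89 and 2.19 with vehicle. The groups do not overlap, with a difference of -0.50 ± 0.17 (adjusted p = 0.418, limma). GADD45A, a stress-induced inhibitor of CDK1 and cyclin B, had 6.83, 6.65 and 6.96 with VS-4718, against 7.10, 7.19 and 7.05 with vehicle, also without overlap (-0.30 ± 0.09, adjusted p = 0.366, limma). CHEK2, a checkpoint kinase, overlapped between groups, with a difference of 0.31.

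The APC/C, which ends mitosis, had 8 of 14 tested genes lower, with a median of -0.02. UBE2S, the enzyme that extends ubiquitin chains for the APC/C, had 10.11, 10.17 and 10.11 with VS-4718, against 10.27, 10.33 and 10.25 with vehicle. The 2 groups are tight and apart, with a difference of -0.15 ± 0.03 and an adjusted p of 0.266 (limma), smaller than that of any member. The subunits ANAPC1 and ANAPC4 differed in sign, at 0.26 and -0.44. UBE2C, which starts those chains, is a member without a row.

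Other kinetochore genes were lower in 12 of 15 tested, with a median of -0.19. MAD2L2, a relative of MAD2L1 known also for DNA damage tolerance, differed by -0.27, MIS18A, which helps load CENPA, by -0.21, and KNTC1, a checkpoint subunit, by 0.23. Other spindle and cytokinesis genes were lower in 17 of 32, with a median of -0.0040. PSRC1, a microtubule-binding protein, differed by -0.31, the kinesin KIF13B by 0.96 and ARHGAP11A by -0.27. Other genes of condensin and mitotic chromosomes were lower in 5 of 8, with a median of -0.03, among them LMNB1 of the nuclear lamina at -0.21, NCAPG2 at 0.19 and NCAPH2 at 0.06. Cohesin genes were lower in 6 of 13, with a median of 0.0011, among them ESCO2 at 0.38, STAG2 at -0.27 and SMC3 at -0.09.

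Several of these balances turned under median scaling, where 49.33% of all rows were lower. The other spindle and cytokinesis genes were then lower in 10 of 32, with a median of 0.030, the cohesin genes in 4 of 13, the APC/C genes in 6 of 14, the MuvB, DREAM and B-Myb genes in 5 of 13 and the other condensin and chromosome genes in 4 of 8. The G2 checkpoint and mitotic entry genes were still lower in 11 of 15 and the other kinetochore genes in 12 of 15, with medians of -0.047 and -0.16.

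Genes of the preceding phases, G1/S and DNA replication, were lower in 32 of 44 tested, with a median of -0.04, against 34 of 43 and -0.08 for the G2/M and mitosis genes. Under median scaling the G1/S genes were lower in 23 of 44, with a median of -0.0083, and the G2/M and mitosis genes in 29 of 43. At an unadjusted p under 0.05 there were 4 G1/S genes (9.09%), all lower with VS-4718. Of all tested rows, 6.74% were lower at that threshold, and 9.76% passed it in both directions together. Under median scaling 2 of 44 passed it, against 9.42% of all rows. GINS1 and MCM10, parts of the replication machinery, differed by -0.36 and -0.41, and RFC3, of the clamp loader, by -0.14. The difference between the 2 gene sets was not tested.

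The rows of this table call for some care with the members. Row names follow mouse usage in the whole table: besides KIF4, 323 of the 12306 names are mouse clone names ending in RIK or carry the pseudogene suffix PS. The transcript index is not given in the sources. Whether members without a row, such as CCNB1 and CDK1, or with very low values, such as CDC25B and NUSAP1, owe this to the index or to the cells was not tested. Of the melanocyte lineage, PMEL averaged 12.24 ± 0.09 with VS-4718 and 12.21 ± 0.07 with vehicle, and SOX10 averaged 8.17 ± 0.04 with VS-4718 and 8.20 ± 0.04 with vehicle (SD, n = 3 each), while MLANA, TYR and DCT were too low to test. Of the other tested melanocyte genes, PAX3 was higher without overlap (0.22 ± 0.09 SE, unadjusted p = 0.0417, adjusted p = 0.494 by limma) and EDNRB lower without overlap (-0.12, adjusted p = 0.562 by limma), while MITF and TYRP1 overlapped, at 0.12 and -0.07. None of the fibroblast, immune and epithelial marker genes, of which 5 of 7, 1 of 6 and 1 of 5 had a row, was high enough to test, and of 4 endothelial markers 1, PECAM1, was tested and differed by -0.14. PTK2, which encodes the target of VS-4718, had 4.03, 4.15 and 4.20 with VS-4718, against 4.70, 4.22 and 3.90 with vehicle. Its groups overlap, and since the compound acts on the protein, its transcript is no check of the treatment.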

How the data were processed

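The table deposited by the authors gives a log2 expression value for each gene row in each library. The submitters' processing notes name kallisto and GRCh38. The index, annotation and filters are not given in those notes. Put back on a linear scale, the columns sum to between 836527 and 840714, so the unit is read as a TPM-like one. Such values keep no read total, and no counting interval was given. Both groups had 3 libraries, and all columns of the table were used.

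The comparison was a limma-trend fit (limma 3.58.1, R 4.3.3) of the values as deposited, with group as the only term and two-sided p-values, over the 9229 of 12306 rows whose mean lay above the lowest 25% (0.701). P-values were adjusted by Benjamini-Hochberg over all tested rows. A fold change is the VS-4718 mean minus the vehicle mean on the log2 scale, and its SE is limma's moderated one. Alternatives were median scaling, no filter, a stricter filter (lowest 50% left out), a pseudocount of 1, no variance trend, sample quality weights, a replicate block and each library left out. The script was tested on simulated data.

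The members, role groups and further lists were chosen with earlier results of these data known. Values in every library are given for members with an unadjusted p under 0.05 and for CCNB1, CCNB2, CCNA2, CDK1, CDC20, PLK1, AURKA, AURKB, TOP2A, MKI67, FOXM1, BUB1, KIF11, CENPA and UBE2C where they had a row. Up to 3 genes with the smallest p were named from each further list. Other members were named by role, and CDC25B, NUSAP1, NCAPD2 and ASPM were given in every library, after their values were seen. Gene locations are from GENCODE 29 on GRCh38, and promoters from RefSeq on GRCh38.p14. Figures were drawn with matplotlib 3.10.9.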

Additional observations from a re-analysis of the deposited data

How the results depend on the processing

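No member passed an adjusted p under 0.05 in any of the 13 alternatives, where the lowest adjusted p was 0.26 (limma, CENPF, sample quality weights). The number of members with a lower mean was 27 of 36 with the stricter filter, 36 of 45 with no filter, 31 of 43 with quality weights, and 28 to 36 of 43 with single libraries left out. The members' median difference was -0.051 with median scaling, and between -0.10 and -0.054 with single libraries left out, against -0.084 as reported. The number of rows called over the whole table, 12 as reported, was 0 without a variance trend (910 rows at an unadjusted p under 0.05) and 0 to 7 with single libraries left out (706 to 990 rows at an unadjusted p under 0.05). Leaving out VS-4718 replicate 1 gave 1 call, leaving out vehicle replicate 2 gave 7, and leaving out any other library gave 0; the cause was not tested.

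With the replicate number as a block, 34 members were lower, 0 were called and 4 had an unadjusted p under 0.05, and 0 rows were called over the table (793 at an unadjusted p under 0.05). The numbers were not taken to pair the libraries, though the residual correlations do not settle this. They were 0.13, 0.05 and 0.03 for same-numbered libraries, and between -0.09 and 0.05 for differently numbered ones. Treated replicates 1 and 2 were closest to the vehicle library of their own number, and the third treated library was closest to vehicle replicate 2 (0.05).

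Of 194 fold changes of the 15 members given in every library by rule, 10 changed sign under an alternative, all in members whose difference was close to 0. With median scaling, CCNB2 was 0.010, BUB1 0.00070 and KIF11 0.016; KIF4 and HMMR, outside that count, were 0.018 and 0.028. With quality weights CCNB2 was 0.0054. With single libraries left out, CCNB2 ran between -0.076 and 0.021, AURKB between -0.12 and 0.034, BUB1 between -0.12 and 0.039, and KIF11 between -0.12 and 0.076. The unknown read depth and 3 libraries a group limit what differences under about 1.41-fold can show.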
